A study of Mus musculus with 20 samples.

Results

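The Ifitm genes encode small interferon-induced transmembrane proteins. They were followed here as all array probes named Ifitm1, Ifitm2, Ifitm3, Ifitm5, Ifitm6 or Ifitm7, which gave 8 probes for 6 genes out of 39429 probes for 30139 genes or transcripts. The members were chosen by name, not by their values. RNA was measured on 20 single-colour Agilent arrays, and the series set out to find interferon-stimulated genes enriched in several tissues of Irgm1-/- mice. Irgm1 is an interferon-inducible GTPase that takes part in defence against intracellular microbes and in autophagy. Every mouse was kept on a C57BL/6 background, and the WT mice served as the reference in each tissue. Salivary gland came from 4 female mice labelled Irgm1-/- aged 9 weeks and from 4 female WT mice aged 6 or 7 weeks. Whole small intestine, sampled as duodenum, came from 3 mice labelled Irgm1-/- (males of 6 and 8 weeks and a female of 6 weeks) and from 3 female WT mice of 6 or 8 weeks. Macrophages isolated from colon came from mice of the same ages and sexes as the duodenum, and the mouse numbers in the deposited file names tie the 2 sets to the same animals. The mouse numbers used below are those of the sample titles, which count within each tissue. The same number need not mean the same animal, since mouse 1 of both genotypes was 6 weeks old in duodenum and 8 weeks old in macrophages. Age therefore cannot be told apart from genotype in salivary gland, and sex runs partly with genotype in the other tissues. The labels give neither the gate used to isolate the macrophages nor the part of Irgm1 that was deleted.

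Ifitm proteins share a membrane-embedded CD225 domain and hinder enveloped viruses from fusing with the membranes of the cells they enter. Ifitm3 and Ifitm2 act mainly in endosomes and lysosomes, and Ifitm1 sits largely at the cell surface. Type I and type II interferons raise several members, while Ifitm5 is best known from osteoblasts, where it takes part in bone mineralization.

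Ifitm3 was the member that followed the interferon-induced genes in the whole tissues. It was 4.41-fold higher in salivary gland and 2.28-fold higher in duodenum of mice labelled Irgm1-/-, and the first of these passed the threshold of 0.05 for the adjusted p. In colonic macrophages Ifitm1, Ifitm2 and Ifitm3 all had lower means in the group labelled Irgm1-/-, although interferon-induced genes had a median difference above 0 there and none of these members passed the threshold. Ifitm5, Ifitm6 and Ifitm7 did not pass in any tissue in which they were tested. Of the members that could be tested, 1 of 3 passed in salivary gland, against 2.25% of all genes tested. In duodenum 0 of 5 passed, against 0.145% of all genes, and in macrophages 0 of 5, against 0.138%. These counts depended in part on the processing, as is given with each member. At an unadjusted p under 0.05, 2383 genes in salivary gland, 1250 in duodenum and 2192 in macrophages were found.

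The probes decide what each member's values can mean, so the 60-base sequences of those on which the results turn are shown as the deposited files give them. Capitals mark the 54-base run that both Ifitm1 probes share and the GT repeat of an Ifitm7 probe.
Ifitm3, A_51_P128876: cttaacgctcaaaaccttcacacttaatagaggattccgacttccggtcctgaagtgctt
Ifitm2, A_55_P1998578: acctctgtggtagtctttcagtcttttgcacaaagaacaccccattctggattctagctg
Ifitm1, A_55_P2087265: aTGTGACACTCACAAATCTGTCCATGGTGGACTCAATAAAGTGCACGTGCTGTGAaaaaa
Ifitm1, A_55_P2146254: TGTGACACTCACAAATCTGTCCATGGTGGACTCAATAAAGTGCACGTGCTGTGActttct
Ifitm7, A_55_P2097161: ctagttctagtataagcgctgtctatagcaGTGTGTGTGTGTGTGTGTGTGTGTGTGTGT
Ifitm7, A_55_P1955876: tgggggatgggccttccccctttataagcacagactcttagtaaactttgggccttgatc

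The Ifitm1 probes are the same sequence shifted against each other and are not independent measurements. Between probes of different members the longest shared run was 8 bases, so no probe holds a long stretch of another member's probe. Whether the 60 bases of a probe also match a relative's transcript in a part that no probe covers was not tested, since transcript sequences were not used here. The Ifitm3 probe shared no run of 20 or more bases with any other probe on the array, and neither did the probes of Ifitm5 and Ifitm6. The Ifitm2 probe shared 36 bases with a probe that has no gene name, and the Ifitm7 probe A_55_P1955876 shared 20 bases with a probe named Gal3st2. The Ifitm7 probe A_55_P2097161 ends in 30 bases of GT repeat and shared runs of 20 or more bases with 75 other probes, counting both strands. Ifitm3 was spotted 10 times on each array, with a coefficient of variation between spots of 2.17% to 16%, and each of the other probes was spotted once.

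The Ifitm1, Ifitm2, Ifitm3, Ifitm5 and Ifitm6 genes lie together on chromosome 7, and Ifitm7 lies on chromosome 16. Promoters from 250 bases before to 50 after the start of all 6 members were read from RefSeq (GRCm38.p6), and those of Ifitm3 and Ifitm2 are shown because these were the members with matches to the core of the interferon-stimulated response element, searched on both strands as 2 copies of GAAA with 2 bases of any kind between them. Capitals mark the matches, and both sequences run in the direction of transcription on the minus strand.
Ifitm3, chr7:141010695-141010994: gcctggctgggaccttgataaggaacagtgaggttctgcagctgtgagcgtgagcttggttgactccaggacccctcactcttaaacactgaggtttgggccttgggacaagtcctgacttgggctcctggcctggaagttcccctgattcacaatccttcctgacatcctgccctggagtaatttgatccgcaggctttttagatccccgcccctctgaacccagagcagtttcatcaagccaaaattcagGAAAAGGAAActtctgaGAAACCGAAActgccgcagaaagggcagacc
Ifitm2, chr7:140955912-140956211: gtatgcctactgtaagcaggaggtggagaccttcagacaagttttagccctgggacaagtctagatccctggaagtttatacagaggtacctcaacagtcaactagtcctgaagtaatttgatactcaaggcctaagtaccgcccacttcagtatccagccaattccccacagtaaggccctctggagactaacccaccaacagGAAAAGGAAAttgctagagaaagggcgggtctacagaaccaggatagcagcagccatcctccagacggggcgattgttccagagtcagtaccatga

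The Ifitm3 window held 2 matches, GAAAAGGAAA and GAAACCGAAA, both just after the start of transcription. The Ifitm2 window held 1 match, GAAAAGGAAA, which begins 46 bases before the start. The windows of the other 4 members held none on either strand. This core occurred in 3.44% of 32851 promoters of the same length and in those of 13 of the 23 listed interferon-induced genes found in the table. The letters of the gamma-activated site, TTCNNNGAA, occurred once each in the windows of Ifitm3 and Ifitm6 and in 8.30% of all promoters. In Ifitm3 that match shared 3 letters with GAAACCGAAA. A match is a description of the sequence and was not tied to binding.

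The arrays differed in brightness between tissues. The share of probes well above background ran from 25.2% to 48.7% in salivary gland, from 52.6% to 62.1% in duodenum and from 57.1% to 74.4% in macrophages. The salivary array of mouse 1 labelled Irgm1-/- stood apart, with a 75th percentile of 1081 intensity units against 134 to 383 on the other 7 arrays, and with a summed level of 8 acinar markers of 52.5 against 189.9 to 446. Levels below are log2 processed signals minus the 75th percentile of the array, so 0 is that percentile and 1 unit is a doubling. Irgm1 itself went against the labels. Its level averaged -0.16 ± 0.51 on salivary arrays labelled Irgm1-/- and -2.80 ± 0.10 on WT arrays (SD, n = 4 each), and it was also higher in the arrays labelled Irgm1-/- of duodenum (log2 fold change 1.16) and macrophages (0.88), although it passed the threshold in salivary gland only (adjusted p = 0.000565 by limma, against 0.0542 in duodenum and 0.318 in macrophages). Whether its probes lie outside the deleted part was not tested, and the groups are therefore called by their labels. The arrays labelled colonic macrophages carried strong signals of other cells. The summed level of 6 fibroblast markers was 8.53 to 44.3 there, on a scale common to all arrays, against 5.26 to 13.8 in the whole tissues, and the sum of 9 macrophage markers was 0.559 to 5.09, against 1.72 to 17.3 in the whole tissues. The salivary acinar list was highest in salivary gland and the enterocyte list in duodenum.

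**Figure D1:**
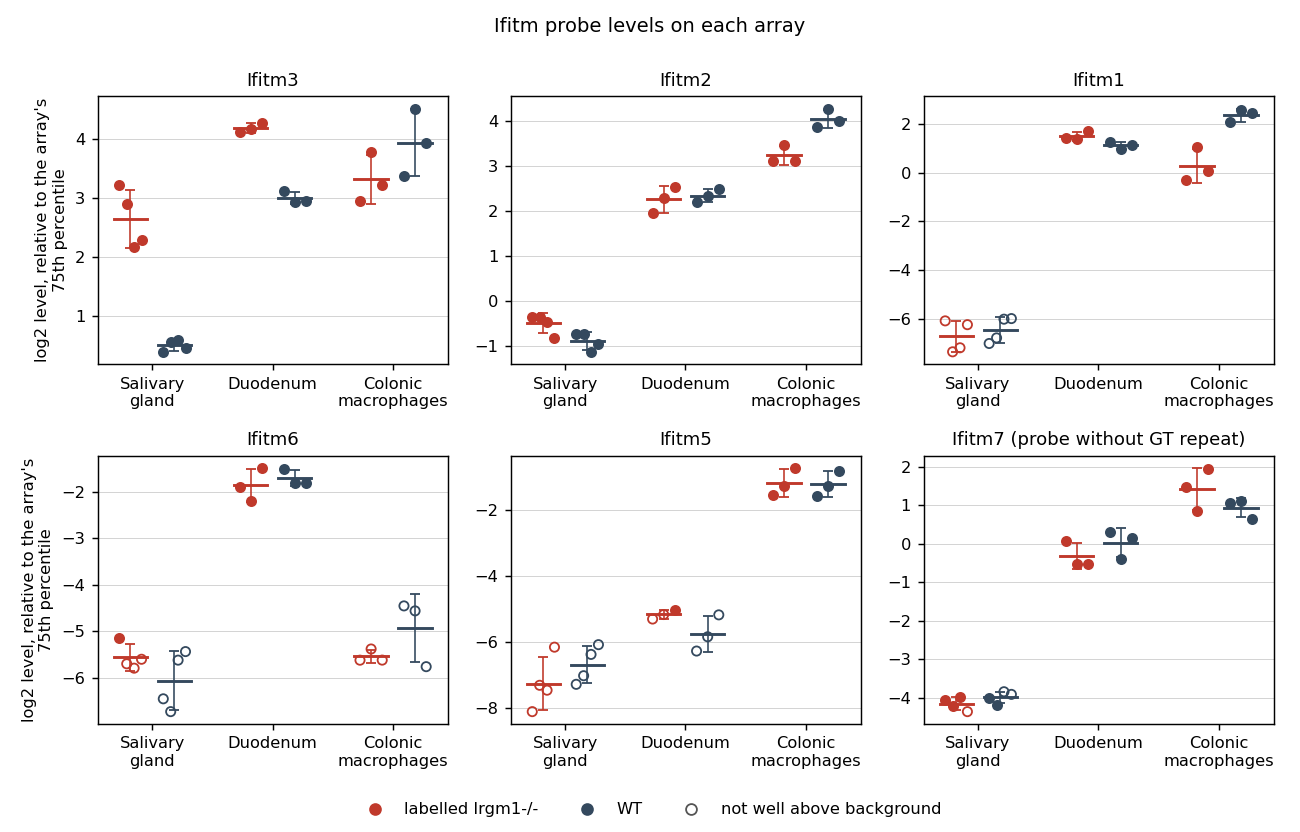
Log2 level of each Ifitm gene on each array, relative to the 75th percentile of that array, for 3 tissues, with the arrays labelled Irgm1-/- left of WT. The percentile covers detected probes in salivary gland and all probes elsewhere, so levels can be compared within a tissue only. Points are arrays, horizontal bars are means, vertical bars are SDs (n = 4 per group in salivary gland, 3 elsewhere), and open points were not well above background. Ifitm3 separates the groups in salivary gland and duodenum, and Ifitm1 narrowly in duodenum, with the labelled Irgm1-/- arrays higher. Ifitm1 and Ifitm2 separate the groups in macrophages with those arrays lower.

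Ifitm3, the endosomal restriction factor of the family, was the member with the clearest genotype difference. In salivary gland its log2 level was 3.22, 2.90, 2.18 and 2.30 in the mice labelled Irgm1-/-, against 0.40, 0.56, 0.61 and 0.46 in WT mice. The 4 mice labelled Irgm1-/- all lay above the 4 WT mice, and they also spread more widely among themselves. Groups that did not overlap in this direction were found for 10.3% of all genes tested. The difference was 2.14 on the log2 scale (SE 0.23, 95% interval 1.63 to 2.66, adjusted p = 0.00128 by limma with Benjamini-Hochberg adjustment). It ranked 63rd of 11457 genes by p. The difference was 2.58 on the slide that held mice 1 and 2 of each group and 1.71 on the slide that held mice 3 and 4. Mouse 1 labelled Irgm1-/-, whose array stood apart, had the highest Ifitm3 level and the highest monocyte and neutrophil sum, and without it the difference was 1.95 (adjusted p = 0.000655 by limma).

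In duodenum Ifitm3 stood at 4.12, 4.17 and 4.28 in the mice labelled Irgm1-/-, against 3.11, 2.94 and 2.95 in WT mice. The groups did not overlap, as for 5.36% of all genes tested in this direction, and each group was tight. The difference was 1.19 (SE 0.14, 95% interval 0.86 to 1.52), and its adjusted p of 0.0536 (limma) lay just outside the threshold, at rank 29 of 17979 genes. The call turned on the processing. The adjusted p was 0.0393 when only transcripts with a gene name entered the fit, 0.0403 after quantile normalization, 0.283 when arrays were set to their median and 0.203 with the mouse number as a replicate block. Leaving out WT mouse 1 brought it to 0.0404, while leaving out any other mouse raised it to between 0.169 and 0.395. Over all settings tried it ran from 0.0268 to 0.956. The log2 difference itself stayed between 1.08 and 1.39 in every such fit, and it was 1.28 between the female labelled Irgm1-/- and the 3 female WT mice. Array brightness also moved with genotype here: the 75th percentile was higher on all 3 arrays labelled Irgm1-/-, and its part in the result was not tested. The sum of 9 macrophage markers was 3.05 to 4.27 in these duodenal samples labelled Irgm1-/- and 1.72 to 2.56 in WT ones, which did not overlap, while 0 of the 8 markers tested passed (median 0.53, against -0.10 over all genes). Sums of other lists moved too. The sum of 6 B and plasma cell markers was 4.77 to 6.41 in duodenum labelled Irgm1-/- and 2.88 to 3.81 in WT, that of 5 epithelial markers 23.3 to 26.8 against 27.9 to 29.9, and that of 7 enterocyte markers 28.8 to 30.8 against 30.9 to 39.1. The sum of 6 endothelial markers was 0.613 to 0.653 against 0.349 to 0.611, and 5 of the 6 had positive differences (median 0.40). None of these sums overlapped between the groups, and 0 members of these lists passed the threshold. Taken marker by marker on the scale of the duodenal fit, 2 of the 6 B and plasma cell differences were positive (median -0.18, against -0.10 over all genes). The sums are on the scale common to all arrays, where genotype differences in duodenum are shifted. The sums and the marker differences therefore cannot be set directly against each other. The part of these cells in the Ifitm3 difference was not tested.

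In colonic macrophages Ifitm3 had levels of 2.96, 3.78 and 3.22 in the group labelled Irgm1-/-, against 3.37, 4.52 and 3.93 in WT. The groups overlapped, and the labelled Irgm1-/- mean was the lower. The difference was -0.62 (SE 0.36, 95% interval -1.45 to 0.20, adjusted p = 0.672 by limma) in the fit without pairing. Between mice of the same number the difference was -0.41, -0.74 and -0.71, lower in the mouse labelled Irgm1-/- in 3 of 3 pairs. That equal numbers pair the mice is an assumption. With the mouse number as a replicate block the adjusted p was 0.135, still outside the threshold.

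Ifitm2, like Ifitm3 an endosomal member, did not pass the threshold anywhere. In salivary gland its level was -0.36, -0.36, -0.47 and -0.83 in the mice labelled Irgm1-/-, against -0.75, -0.74, -1.14 and -0.96 in WT mice. Mouse 4 of the group labelled Irgm1-/- lay within the WT range and the other 3 lay above it. The difference was 0.39 (SE 0.15, 95% interval 0.05 to 0.73, adjusted p = 0.197 by limma). In duodenum Ifitm2 stood at 1.95, 2.28 and 2.54 in the mice labelled Irgm1-/-, against 2.20, 2.34 and 2.49 in WT mice, with a difference of -0.09 (95% interval -0.56 to 0.38). The duodenal groups lay within each other's range, and the sign of this small difference changed with the scaling. In macrophages its level was 3.12, 3.48 and 3.12 in the group labelled Irgm1-/-, against 3.88, 4.28 and 4.0 in WT. All 3 arrays labelled Irgm1-/- lay below the 3 WT arrays, as was so for 7.87% of all genes tested, and the difference was -0.81 (SE 0.25, 95% interval -1.39 to -0.24, adjusted p = 0.237 by limma).

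The unnamed probe that shares 36 bases with the Ifitm2 probe gave a similar picture in macrophages. On the scale common to all arrays its level was -0.77, -0.10 and -0.33 in the group labelled Irgm1-/-, against 0.10, 1.03 and 0.57 in WT. The groups did not overlap there, and the shared bases mean that it is not independent of the Ifitm2 probe.

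Ifitm1, the member of the cell surface, was not well above background on any salivary array at its brighter probe and was not tested there. The other Ifitm1 probe was well above background on 1 salivary array, that of mouse 1 labelled Irgm1-/-. In duodenum the brighter probe stood at 1.44, 1.37 and 1.71 in the mice labelled Irgm1-/-, against 1.27, 0.98 and 1.16 in WT mice. The groups did not overlap, as for 5.36% of all genes tested in this direction, and lay close together. The difference of 0.37 (SE 0.16, 95% interval -0.02 to 0.76) had an adjusted p of 0.665 in limma. In macrophages its level was -0.30, 1.08 and 0.09 in the group labelled Irgm1-/-, against 2.08, 2.58 and 2.48 in WT. The 3 arrays labelled Irgm1-/- were all lower, as for 7.87% of all genes tested, and also more scattered. The labelled Irgm1-/- mean was 0.235 times the WT mean, a log2 difference of -2.09 (SE 0.38, 95% interval -2.95 to -1.23), the largest in size of any member tested in any tissue except Ifitm3 in salivary gland. Its adjusted p was 0.0949 in limma, at rank 101 of 21084 genes. Mouse numbers were taken to pair mice labelled Irgm1-/- with WT mice in macrophages and duodenum, which is an assumption. With the number as a replicate block the adjusted p for Ifitm1 in macrophages was 0.0189 in limma. That block also moved the count of all genes called in macrophages far above the 29 of the main fit, as given with the processing. Ifitm1 also passed after normexp background correction (0.0387) and in a fit of all 20 arrays (0.00409), where Ifitm2 in macrophages passed too (0.0314). Across the other settings tried the adjusted p of Ifitm1 ran from 0.0542 to 0.495. Between the female labelled Irgm1-/- and the 3 female WT mice the difference was -2.29. The other Ifitm1 probe gave -1.94 in macrophages and 0.38 in duodenum.

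Markers of other cells moved with the members in macrophages. The fibroblast markers Col1a1, Col1a2, Col3a1, Dcn, Lum and Pdgfra all had negative differences there, with a median of -1.33, against a median of 0.10 over all genes, and 0 of 6 passed the threshold. Their summed level was 8.53, 24.3 and 18.8 in the group labelled Irgm1-/-, against 33.2, 44.3 and 42.3 in WT. These sums did not overlap between the groups. All 8 macrophage markers tested also had negative differences (median -1.27, 0 passed), with sums of 0.559, 1.38 and 1.95 in the group labelled Irgm1-/- and 1.09, 5.09 and 3.86 in WT. The 5 epithelial markers all had positive differences (median 0.63, 0 passed). The part of these cell mixtures in the Ifitm differences was not tested, and in RNA from many cells fewer cells of a type and less RNA per cell cannot be told apart.

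**Figure D2:**
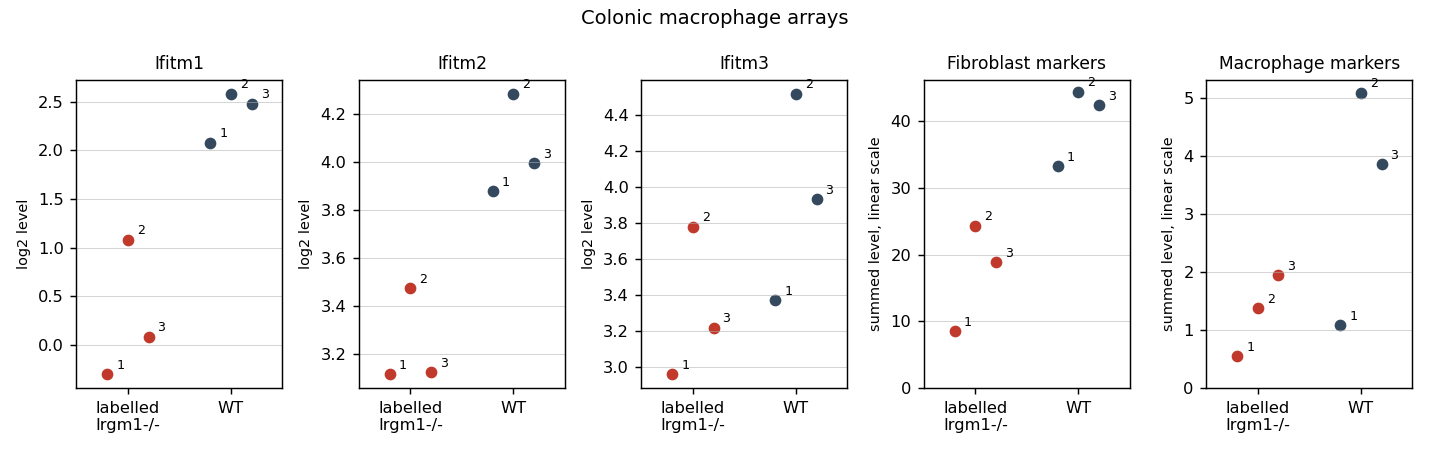
Colonic macrophage arrays, labelled Irgm1-/- left of WT, with the mouse number of each array beside its point. The left 3 panels give the log2 level of Ifitm1, Ifitm2 and Ifitm3 relative to the 75th percentile of the array, and the right 2 panels give the summed linear level of 6 fibroblast and 9 macrophage markers on the common scale. Ifitm1, Ifitm2 and the fibroblast sum do not overlap between the groups, while Ifitm3 and the macrophage sum do.

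In salivary gland markers of immune cells moved with Ifitm3. Of 8 macrophage markers tested 4 rose (Mrc1, C1qa, C1qb and C1qc, with C1qa at 1.67), and their list's median was 0.86, against 0.03 over all genes. The sum of 9 macrophage markers was 8.55 to 17.3 in the mice labelled Irgm1-/- and 5.03 to 10.8 in WT mice. Of 9 monocyte and neutrophil markers on the array 2 could be tested and both rose, Plac8 with a log2 difference of 3.36 and Ly6g, which was at least 3.29-fold higher. Ly6g was well above background on 4 of 4 arrays labelled Irgm1-/- and on 0 of 4 WT arrays. It thus entered the test only through the group where it is high. The defining markers S100a8, S100a9, Mpo, Camp and Ccr2 were well above background on 0 of the 8 arrays. The sums of the 9 markers were 1.13 to 2.99 in the mice labelled Irgm1-/- and 0.199 to 0.313 in WT mice. Plac8 alone averaged a log2 level of 0.69 in the mice labelled Irgm1-/- and -2.68 in WT mice. Of 4 T and NK cell markers tested 1 rose, the granzyme gene Gzma (2.50), while Nkg7 (0.70), Cd3e (0.56) and Cd4 (-0.015) did not pass. Their list's sums overlapped, at 2.72 to 4.66 in the mice labelled Irgm1-/- and 1.75 to 2.84 in WT mice. The part of these cells in the Ifitm3 difference was not tested. The 6 fibroblast markers had a median of 0.17 and the 7 salivary acinar markers tested one of -0.59, with 0 passing in either list.

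Ifitm6 was measured in duodenum alone. Its level there was -1.89, -2.21 and -1.49 in the mice labelled Irgm1-/-, against -1.51, -1.81 and -1.81 in WT mice, and the groups overlapped (difference -0.15, 95% interval -0.68 to 0.38). It was well above background on 1 salivary array, that of mouse 1 labelled Irgm1-/-, and on none of the 6 macrophage arrays. Ifitm5, the osteoblast member, was well above background on all 6 macrophage arrays, on 1 duodenal array, labelled Irgm1-/-, and on none of the 8 salivary arrays. Its macrophage levels were -1.55, -1.28 and -0.73 in the group labelled Irgm1-/-, against -1.59, -1.26 and -0.81 in WT. The group means were nearly equal (difference 0.03, 95% interval -0.70 to 0.76), and the levels rose with mouse number in both groups. The share of all probes well above background rose in the same order. It was 64.6%, 65.4% and 74.4% on arrays labelled Irgm1-/- and 57.1%, 68.2% and 73.8% on WT arrays. The part of this share in the Ifitm5 levels was not tested. Of the osteoblast markers, Bglap fell by 0.71 in salivary gland, where 1 of 5 markers was tested, and 0 passed elsewhere.

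The Ifitm7 probes disagreed in sign in 2 of 3 tissues. At the probe with the GT repeat, the log2 difference was -0.32 in salivary gland, 0.40 in duodenum and -0.12 in macrophages. At the probe without it, the difference was -0.17 in salivary gland, -0.35 in duodenum and 0.47 in macrophages. None of these passed the threshold. In macrophages the probe without the repeat had levels of 1.46, 0.84 and 1.94 in the group labelled Irgm1-/-, against 1.07, 1.1 and 0.65 in WT, and these overlapped.

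The level of the GT-repeat probe moved with those of other probes that carry the repeat. Its level on the common scale was 4.39, 4.48 and 4.39 on macrophage arrays labelled Irgm1-/- and 4.74, 4.55 and 4.60 on WT ones, against -1.78 to 0.10 on all duodenal and salivary arrays. The median of 50 other probes with a GT run of 20 or more bases moved in the same way, at 4.67 to 5.05 on macrophage arrays labelled Irgm1-/- and 4.95 to 5.35 on WT ones, against -0.64 to 0.76 on the arrays of the other tissues. The step was not particular to GT runs. Medians of 22 probes with a CA run averaged 5.13 and 5.28 in the 2 macrophage groups, against -0.26 to 2.36 in the other groups. Medians of all probes averaged -4.58 and -4.51 there, against -7.05 to -6.21 in the other groups. Across 20 arrays, with the mean of each tissue taken off, the named genes most like the Ifitm7 probe with the GT repeat were Trim25, Mms22l and Synpo2l (Pearson r 0.99, 0.98 and 0.98). Their probes carry GT runs of 30, 30 and 18 bases, and runs of at least 18 bases occur in 0.15% of all 39429 probes. Values of the Ifitm7 probe with the repeat are therefore given as those of a repeat-bearing probe and not as a level of Ifitm7 alone.

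**Figure D3:**
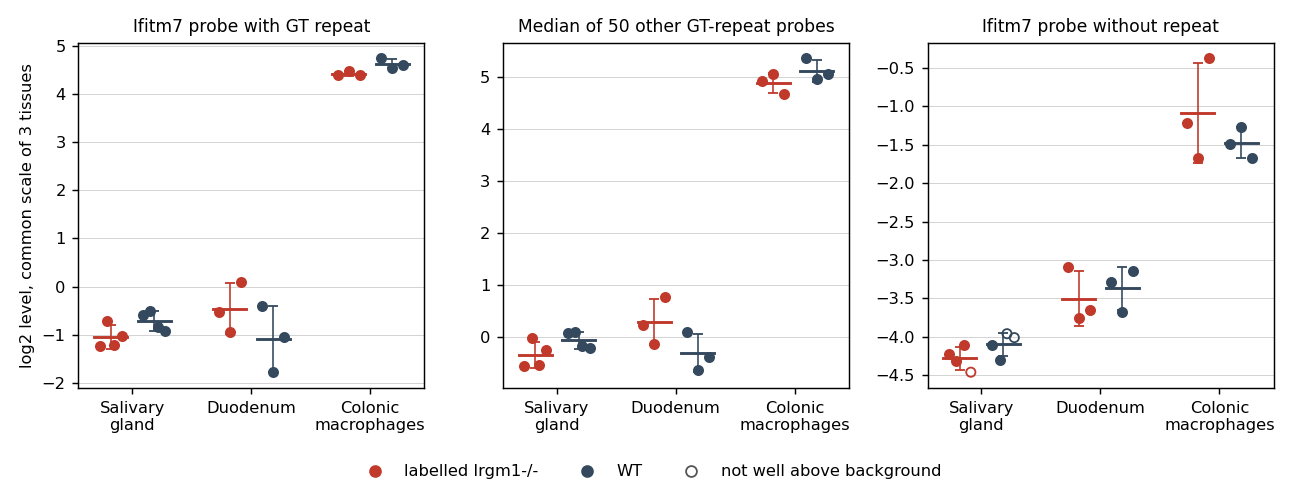
Log2 level on the scale common to all tissues for the Ifitm7 probe with a GT repeat, for the median of 50 other probes with a GT run of at least 20 bases, and for the Ifitm7 probe without a repeat, with arrays labelled Irgm1-/- left of WT and an axis of its own for each panel. Points are arrays, bars are mean and SD, and open points were not well above background. The repeat-bearing probes share a step up on the macrophage arrays. The probe without a repeat is also higher there, with group means of -1.09 and -1.47 against -4.28 to -3.37 in the other tissues.

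The wider interferon response gives the setting for these values. Of 33 listed interferon-induced genes, 23 were tested in salivary gland and 22 rose, with a median log2 difference of 3.37. Over all genes tested, 2.25% passed in salivary gland, 0.145% in duodenum and 0.138% in macrophages. Ifit3b (5.21), Oas2 (5.08) and Ifit3 (4.71), from families that act on foreign RNA, had the largest fitted differences. Ifit3b, Oas2, Irf7, Dhx58 and Cxcl10 were well above background on 4 of 4 arrays labelled Irgm1-/- and on 0 of 4 WT arrays. They entered the test only through the group where they are high, and the count of 22 and the median include them. What their values give is therefore a bound, at least 14.3-fold for Ifit3b, 12.6-fold for Oas2, 11.7-fold for Irf7 and 4.68-fold for Dhx58. Ifitm3 lay in the lower part of that list, since 17 of the 23 genes had a larger fitted difference, and Ifitm2 lay below 22 of them. Among those above Ifitm3, Cxcl10 was well above background on 0 of 4 WT arrays. Its bound of at least 3.96-fold lay below the 4.41-fold of Ifitm3. In duodenum 11 of 33 rose (median 1.52), led by Ifi44 (3.41), Oas2 (3.40) and Usp18 (2.68), the protease that removes Isg15, and 19 of 33 had a larger difference than Ifitm3. In macrophages 2 of 31 rose, Oas3 (3.54) and Dhx58 (2.18), with a median of 0.99. All 31 had a larger difference than Ifitm1, Ifitm2 and Ifitm3 there, and Bst2, another membrane restriction factor, was the 1 gene of the list below 0 (-0.23).

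**Figure D4:**
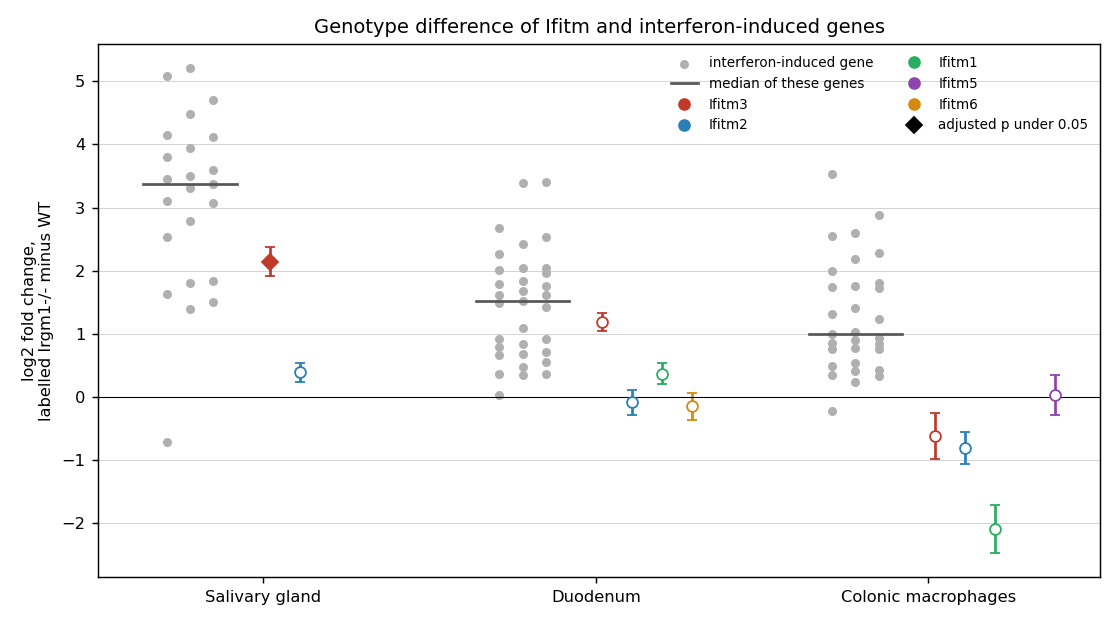
Log2 fold change, labelled Irgm1-/- minus WT, of 5 Ifitm genes with their standard errors (coloured, diamonds where the adjusted p was under 0.05) beside the interferon-induced genes tested in each tissue (grey, with their median as a bar). Ifitm7 is left out. Ifitm3 lies below the median of the grey points in all 3 tissues, and Ifitm1, Ifitm2 and Ifitm3 lie below all of them in macrophages.

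Genes that act around the family were also counted. Of the interferon receptor chains, their kinases and the factors of ISGF3, 2 of 7 tested rose in salivary gland, Stat2 (1.62) and Irf9 (1.39), and 0 of 10 passed in duodenum and in macrophages. Among enzymes and partners that act on Ifitm3, such as the ubiquitin ligase Nedd4 and the protease Zmpste24, 0 of 5, 0 of 7 and 0 of 6 tested passed in salivary gland, duodenum and macrophages. The other proteins with a CD225 domain gave 0 of 1, 0 of 4 and 0 of 6 in the same order, with Prrt2 at -1.81 in macrophages (adjusted p = 0.0896 by limma). Genes next to the Ifitm cluster on chromosome 7, such as Nlrp6, Pkp3 and Sigirr, gave 0 of 5, 0 of 6 and 0 of 5, and those next to Ifitm7 on chromosome 16 gave 0 of 3, 0 of 5 and 0 of 4.

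The named genes most like Ifitm3 over the 20 arrays, after the mean of each tissue was taken off, were C4b, Ifi204 and Ifi211 (Pearson r 0.97, 0.97 and 0.95). C4b is a complement component, and Ifi204 and Ifi211 are interferon-inducible nuclear proteins. Those most like Ifitm2 were Rbpms, Lgals1 and Phlda3 (0.91, 0.90 and 0.89), of which Lgals1 encodes galectin-1. These arrays share tissues, slides and genotype, and 8182 genes were candidates, so the values describe likeness alone. Ifitm2 and Ifitm3 had an r of 0.56 with each other.

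On the scale common to all arrays, Ifitm3 levels ran in the order of salivary gland labelled Irgm1-/- (2.53 ± 0.48), WT macrophages (1.53 ± 0.67), duodenum labelled Irgm1-/- (1.02 ± 0.12), macrophages labelled Irgm1-/- (0.82 ± 0.50), WT salivary gland (0.40 ± 0.09) and WT duodenum (-0.39 ± 0.09; SD, n = 4 in salivary gland and 3 elsewhere). Only the last 2 neighbours in that order did not overlap. Ifitm2 was highest in WT macrophages (1.64 ± 0.30) and next in macrophages labelled Irgm1-/- (0.74 ± 0.27), and its other 4 groups, between -0.63 and -1.05, overlapped their neighbours. Ifitm1 was highest in WT macrophages (-0.034 ± 0.38), which lay above all other groups. It was followed by duodenum labelled Irgm1-/- (-1.66 ± 0.23), macrophages labelled Irgm1-/- (-2.21 ± 0.77) and WT duodenum (-2.25 ± 0.10), of which the neighbours overlapped, and at this probe both salivary groups were not well above background. The scan days of the 3 tissues differ, and tissue cannot be told apart from scan day.

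The genotype effect itself differed between tissues for some members. In an interaction test over the 20 arrays, the Ifitm3 effect was larger in salivary gland than in macrophages by 2.76 (SE 0.37, adjusted p = 0.000213 by limma), and the Ifitm2 effect by 1.21 (SE 0.25, adjusted p = 0.00502). These were called among 7.36% of all genes tested. The Ifitm1 effect was larger in duodenum than in macrophages by 2.46 (SE 0.53, adjusted p = 0.0317), and the Ifitm3 effect by 1.81 (SE 0.41, adjusted p = 0.0365), among 1.42% of all genes tested. Leaving out single arrays of the 20 in turn ended the call for Ifitm1 in 8 cases (adjusted p between 0.0071 and 0.0988 over all 20) and for Ifitm3 in 13 (0.0123 to 0.112). For both genes these were the 3 duodenal arrays labelled Irgm1-/-, duodenal WT mice 1 and 2, macrophage mouse 1 labelled Irgm1-/- and macrophage WT mice 2 and 3. For Ifitm3 they also included duodenal WT mouse 3, salivary mouse 2 labelled Irgm1-/- and salivary WT mice 2, 3 and 4. Between salivary gland and duodenum the Ifitm3 effect differed by 0.95 (SE 0.37, adjusted p = 0.350), where 0.811% of all genes were called. Duodenum and macrophages came from the same animals, and with the animal as a random block the adjusted p was 0.0340 for Ifitm1 and 0.0533 for Ifitm3.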

How the data were processed

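Cy5-labelled total RNA was hybridized to single-colour Agilent arrays of design 026655 (build mm9) and read with Feature Extraction 11.5.1.1, per the file headers. The deposited intensity values are background-subtracted signals on a linear scale, not yet made comparable between arrays. The deposited spot flags were used as 0 or 1. The authors' series table of intensity values served as an alternative only, and how it was normalized is not stated in the labels.

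Outlier spots were left out (0.193% to 0.851% per array) and 0 were saturated. Log2 signals were averaged per probe and set to the 75th percentile of the array. In salivary gland, where fewer than 50% of probes were detected, it was taken over the 9555 probes detected on all salivary arrays, and levels across tissues used the 8448 detected on all 20 arrays. A gene stood for its probe of highest mean signal and was tested where that probe was detected (well above background) on no fewer arrays than its smaller group has. Tests used limma 3.58.1 in R 4.3.3 (lmFit and eBayes, two-sided, Benjamini-Hochberg over all genes tested, threshold 0.05), per tissue and, for differences between tissues, as an interaction over 20 arrays. The code was tested on simulated data. Intervals are 95% intervals of the fit, and the number of arrays limits their precision. Replicates are separate mice, per the labels.

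Gene names came from RefSeq (GRCm38.p6), whose accessions covered 27508 probes, while the other 11921 carry the array design's own name. Every probe of the members is named, with the 3 genes most like each member tested in all tissues and up to 3 called genes of each list. Members and lists were chosen with earlier results of these data known, and GT repeats were looked at after the values of the Ifitm7 probes were seen.

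Alternatives covered scaling, background correction, probe choice, filters on dim probes, slide or mouse number as a block, an intensity trend, 1 fit of all arrays, the authors' table, females only and each array left out. A fit on transcripts with a gene name was added after the data were seen. Deviations from the group means of equally numbered mice had correlations of 0.23, 0.28 and 0.33 in duodenum and 0.45, 0.24 and 0.63 in macrophages, where the numbers were taken to pair the samples, against 0.22, -0.11, -0.53 and 0.44 in salivary gland.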

Additional observations from a re-analysis of the deposited data

Results flagged for a closer look

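There were 4 differences between tissues in the genotype effect that passed the threshold in a test of the difference itself, each given as labelled Irgm1-/- minus WT in the first tissue minus the same in the second. For Ifitm3 the log2 difference was 2.76 between salivary gland and macrophages and 1.81 between duodenum and macrophages. The second of these did not pass with the animal as a random block (adjusted p = 0.0533 by limma), which is the fit that takes in that both tissues came from the same mice, and it lost its call in 13 of 20 fits that left out 1 array. For Ifitm1 it was 2.46 between duodenum and macrophages. That call held with the animal as a block (adjusted p = 0.0340) and was lost in 8 of 20 fits that left out 1 array. For Ifitm2 it was 1.21 between salivary gland and macrophages. In 12 checks of a member's level within a group of 4 salivary arrays, 0 flagged an array as far from the others. With 4 arrays such a check can show little, and it did not look at array brightness.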

How the results depend on the processing

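In salivary gland Ifitm3 kept its direction and its call in all 22 alternatives run (log2 1.95 to 2.30), and the count of called members was 1 in each, with 1 to 1 when each array was left out. In duodenum the count was 0, and it was 1 with a percentile over other probes, quantile normalization, the mean of all probes, probes well above background on every array, the intensity trend, the authors' table and transcripts with a gene name. Leaving out arrays gave 0 to 1. In macrophages the count was 0, and it was 1 with normexp and with the replicate block and 2 in 1 fit of all 20 arrays, while leaving out arrays gave 0 to 0. With the replicate block, Ifitm3 in duodenum had an adjusted p of 0.203 and the block changed no call of a member other than Ifitm1 in macrophages (0.0189). In salivary gland the mice share only a number, and the block moved the count of all genes called from 258 to 664. The same counts were 26 and 1 in duodenum and 29 and 1096 in macrophages, so the Ifitm1 call with the block was 1 among those 1096. Leaving out arrays gave 142 to 362 genes called in salivary gland, 1 to 36 in duodenum and 20 to 40 in macrophages. For the other alternatives the count of all genes called is not given here, and their counts of members stand without that background.

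Between duodenum and macrophages 2 members differed in genotype effect, against 1 with the mean of all probes, 0 with no filter and 1 with the animal as a random block, and leaving out arrays gave 0 to 2. Between salivary gland and macrophages the count was 2 throughout, and between salivary gland and duodenum it was 0 throughout.

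Signs that turned belonged to small differences that did not pass. In duodenum Ifitm2 was 0.025 with a percentile over other probes, 0.049 with quantile normalization, 0.045 in the authors' table and 0.20 in females, and ran from -0.23 (without mouse 3 labelled Irgm1-/-) to 0.069 (without mouse 1 labelled Irgm1-/-) when single arrays were left out. Ifitm6 was 0.22 in females and ran from -0.34 to 0.022 (without mouse 2 labelled Irgm1-/-). Ifitm7 was -0.35 at its other probe and -0.57 within slide 1, and ran from -0.0086 (without WT mouse 2) to 0.84. In macrophages Ifitm5 was -0.032 with normexp and ran from -0.20 (without mouse 3 labelled Irgm1-/-), with -0.15 without WT mouse 1, to 0.24. Ifitm7 was 0.18 with the mean of its probes and 0.47 at its other probe, and ran from -0.19 to 0.00093 (without WT mouse 1). The Ifitm7 difference between duodenum and macrophages was -0.15 with the mean of its probes. The cause was not tested. The number of mice limits all of these values, and where a member was not well above background its level is only a bound.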
